A study of Homo sapiens with 24 samples.

Results

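The subject here is the response of SKNMC cells to pladienolide B (PlaB) set against the response of 3 other Ewing sarcoma lines, TC32, TC71 and RDES. A response is the mean log2 level on the PlaB arrays of a line minus that on its vehicle arrays. The difference reported throughout is the response of SKNMC minus the mean response of the other lines. A positive difference means that the gene rose more, or fell less, with PlaB in SKNMC than in the mean of the other lines. Genes called higher or lower are so in this difference, which says nothing of whether the level itself was higher in SKNMC. All 24 arrays of the series enter it: 6 of SKNMC and 18 of the other lines. Each line was treated for 24 h with 5 nM PlaB or with 0.1% DMSO as vehicle, with 3 arrays for each line and treatment, and total RNA was read on Illumina beadchips. Whether the 3 arrays of a group came from separate cultures is not given by the labels. The p-values therefore weigh a difference against the scatter of those arrays, which may be technical. Each line stands for a single tumour, and nothing here separates what belongs to SKNMC cells from what belongs to the handling of those 6 samples.

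Ewing sarcoma is a tumour of bone and soft tissue in young people, in most cases driven by a fusion of EWSR1 with FLI1 that makes an aberrant transcription factor. PlaB binds the SF3b complex, the part of the U2 small nuclear ribonucleoprotein that recognises the intron branch point, and so inhibits splicing of pre-mRNA. A drug of this kind acts on the transcripts of many genes at once, and lines of the same tumour can differ in which transcripts gain or lose.

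Arrays detected between 13821 and 18736 probes, with the lowest number on SKNMC PlaB replicate 2. The number of detected probes was 11.9% lower with PlaB in SKNMC, 12% lower in TC32, 7.48% lower in TC71 and 7.61% lower in RDES. All 5 Ewing sarcoma markers examined were detected on every array of every group. Epithelial markers were detected on all arrays of a group for 0 to 2 of 11 genes, endothelial markers for 0 to 1 of 10, skeletal-muscle markers for 0 to 2 of 10 and blood-cell markers for 3 to 4 of 11.

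The difference passed an adjusted p of 0.05 in limma for 5043 of 17557 tested probes, or 28.7%. It was above 0 for 2330 probes (13.3%) and below 0 for 2713 (15.5%). The share of calls above 0 was thus 46.2%, and it was 31.6% under median centring, 56.4% under cyclic loess and 58.4% after centring on probes detected on all arrays, so the balance of directions depends on the scaling. At least 2-fold differences were called for 180 probes upward and 243 downward. A difference from a mean can rest on a single other line, so a response was called particular to SKNMC only where SKNMC also differed from TC32, from TC71 and from RDES, each at an adjusted p under 0.05 and in the same direction. This held for 1648 probes (9.39%), 720 higher (4.10%) and 928 lower (5.29%). Without SKNMC PlaB replicate 2, the array with the fewest detected probes, 4607 probes were called and 1566 were particular. Read by the brightest tested probe of each gene, 482 of 10882 genes were particular and higher (4.43%) and 689 were particular and lower (6.33%).

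The same tests with each of the other lines in the place of SKNMC used the same arrays and gave smaller numbers. Against the mean of its own 3 comparison lines, 3258 probes (18.6%) were called for TC32, 2445 (13.9%) for TC71 and 2185 (12.4%) for RDES. Probes particular to the line numbered 565 (3.22%), 453 (2.58%) and 259 (1.48%). The SD of the response over all tested probes was 0.644 log2 in SKNMC, 0.482 in TC32, 0.513 in TC71 and 0.466 in RDES, so responses in SKNMC were spread more widely. The mean response of the other lines and that of SKNMC had the same sign for 76.2% of probes, with a Pearson r of 0.786 across probes, which are not independent replicates.

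**Figure D1:**
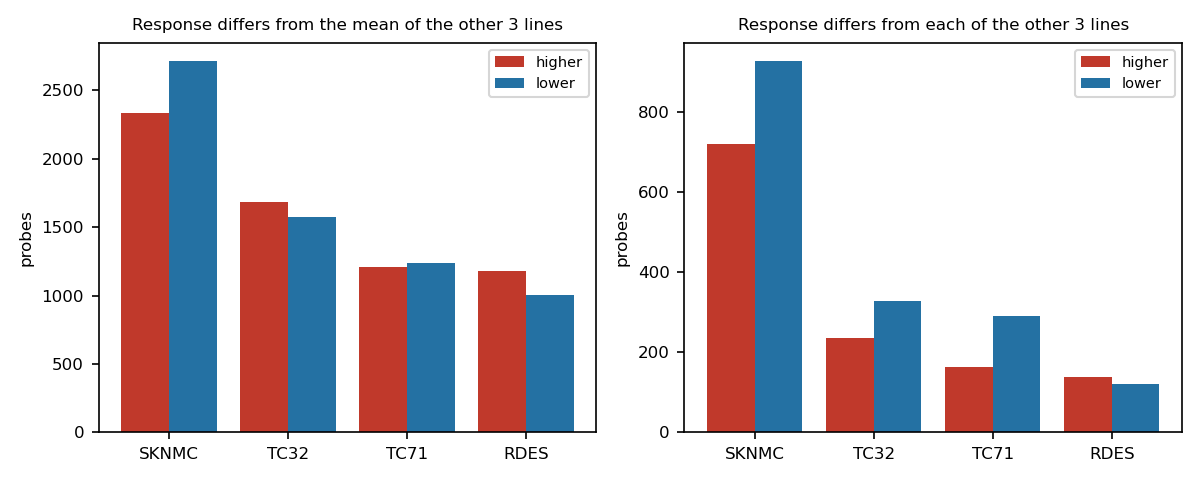
Number of tested probes (y axis) whose PlaB response in the line named on the x axis differed from the mean of the other 3 lines (left) or from each of them (right), in red where higher and in blue where lower. SKNMC has 720 probes higher and 928 lower in the right panel, more than any of the other 3 lines.

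Among the 1171 genes with a response particular to SKNMC, 333 changed in the same direction in all 4 lines and by more in SKNMC, 143 of them upward. Another 297 changed in SKNMC and passed in no other line, 124 of them upward. For 60 genes the 3 other lines changed and SKNMC did not pass, for 23 the direction in SKNMC was opposite to that in all 3 other lines, and for 6 SKNMC changed in the same direction by less. The remaining 452 mixed called and uncalled lines.

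**Figure D2:**
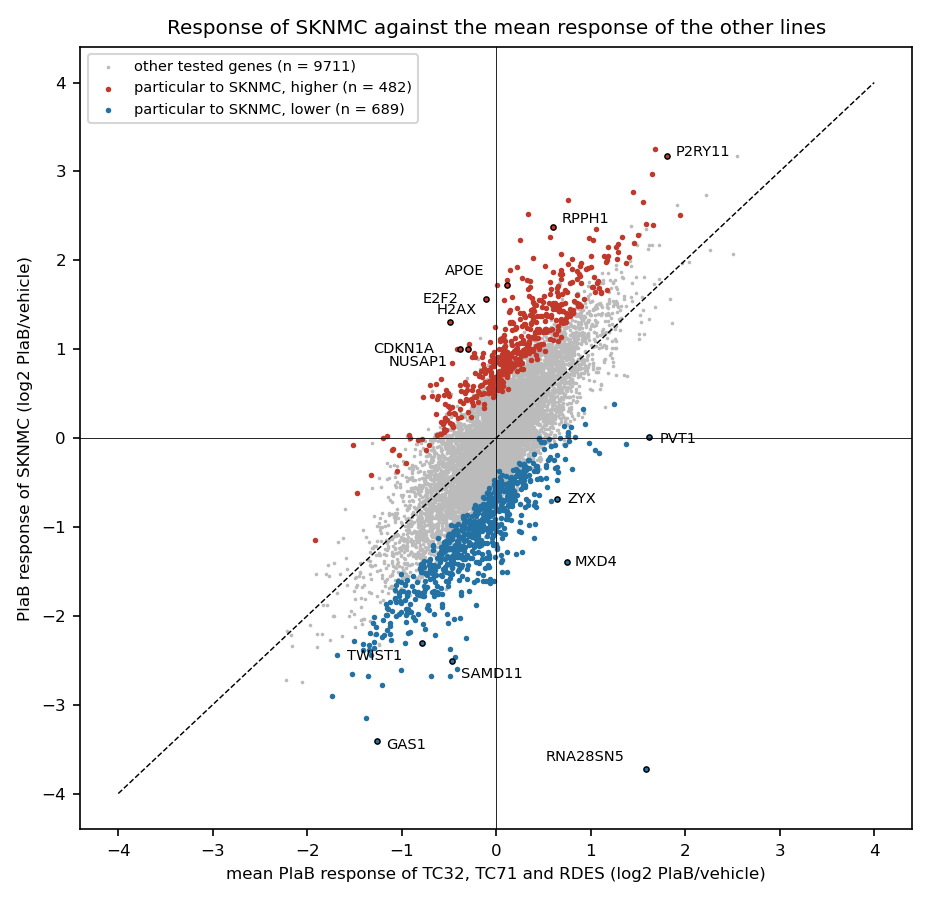
PlaB response of SKNMC (y axis) against the mean response of TC32, TC71 and RDES (x axis), both as log2 PlaB over vehicle, with 1 point per tested gene. Red and blue points are the 482 and 689 genes with a higher or lower response particular to SKNMC, grey points are the other 9711 genes, the dashed line marks equal responses, and open circles are genes named in the text.

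Among genes detected on every array, H2AX had the largest higher difference that was particular to SKNMC. It encodes the histone H2A variant that is phosphorylated at DNA breaks. Its SKNMC levels were 6.94, 7.08 and 7.08 with vehicle and 8.25, 8.54 and 8.22 with PlaB. In TC32 the levels were 7.65, 7.40 and 7.54 with vehicle and 6.88, 6.98 and 6.90 with PlaB. In TC71 they were 6.85, 6.96 and 6.96 against 6.72, 6.77 and 6.97, and in RDES 7.68, 7.77 and 7.69 against 7.12, 6.92 and 6.78. The treatments were separated in SKNMC with PlaB above vehicle, separated the other way in TC32 and RDES, and overlapping in TC71. The difference was 1.80 ± 0.13 log2 (SE, 24 arrays; adjusted p = 2.04e-11).

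E2F2, a transcription factor that activates genes for DNA synthesis, gave 8.64, 8.71 and 9.03 with vehicle and 10.39, 10.42 and 10.27 with PlaB in SKNMC. In TC32 it gave 8.34, 8.66 and 8.66 against 8.83, 9.0 and 9.21, in TC71 7.62, 7.98 and 8.08 against 7.98, 7.89 and 7.65, and in RDES 7.83, 7.98 and 7.84 against 7.01, 7.19 and 7.22. E2F2 thus rose in SKNMC and TC32, fell in RDES and overlapped between treatments in TC71. Its difference was 1.68 ± 0.15 (adjusted p = 2.45e-09).

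Other genes among the 12 highest were POLQ, the polymerase of theta-mediated end joining, with a difference of 1.53 ± 0.16, EXO1, an exonuclease of mismatch repair and end resection, with 1.48 ± 0.12, and ATAD2, a chromatin-bound bromodomain ATPase, with 1.42 ± 0.13. POLQ rose by 1.80 in SKNMC and 0.52 in TC71, and its responses of 0.30 in TC32 and -0.01 in RDES did not pass. EXO1 rose by 1.55, 0.45 and 0.35 in SKNMC, TC32 and TC71 and fell by 0.57 in RDES. A second EXO1 probe was also called, with a difference of 0.81. ATAD2 rose by 1.01 in SKNMC, fell by 0.35 in TC32 and by 0.70 in RDES, and stood at -0.19 in TC71 without passing.

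CDKN1A encodes p21, an inhibitor of cyclin-dependent kinases and a target of p53. In SKNMC its levels were 5.03, 4.63 and 4.86 with vehicle and 5.71, 5.94 and 5.88 with PlaB. In TC32 they were 8.87, 8.93 and 8.83 with vehicle and 7.85, 8.04 and 8.25 with PlaB. In TC71 they were 5.65, 5.48 and 5.64 against 6.06, 6.06 and 5.98, and in RDES 5.23, 5.15 and 5.56 against 4.63, 4.60 and 4.45. Arrays of the treatments did not overlap in any line, with PlaB above vehicle in SKNMC and TC71 and below it in TC32 and RDES. The difference of 1.38 ± 0.14 (adjusted p = 1.59e-08) had its nearest line in TC71, where SKNMC was higher by 0.56. It was 0.82 with a background offset of 50 and 0.67 without background correction. Among 23 measured cyclin-dependent kinase inhibitors and p53 targets, 6 were higher and 6 lower (26.1% each), against 14% and 17.9% of all tested genes. CDKN1C, the inhibitor p57, fell by 0.95 in SKNMC and was detected on 0 to 2 of 3 arrays in each group of the other lines. Only the SKNMC vehicle group detected it on all 3 arrays, so its fall follows in part from the detection filter. TIGAR, a phosphatase of glucose metabolism, was particular and lower at -0.94.

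APOE, the lipid-carrying apolipoprotein E, gave 5.72, 5.53 and 5.81 with vehicle and 7.29, 7.56 and 7.36 with PlaB in SKNMC. It rose there by 1.72 and in RDES by 0.39, while its responses of -0.08 in TC32 and 0.03 in TC71 did not pass. LTB4R, a leukotriene B4 receptor, rose by 1.94 in SKNMC, 0.91 in TC32 and 0.89 in RDES, with -0.25 in TC71. P2RY11, a receptor for extracellular nucleotides, rose in all 4 lines, by 3.17 in SKNMC, 2.13 in TC32, 1.43 in TC71 and 1.85 in RDES. RAX2, a homeobox gene of the retina, rose by 1.59 in SKNMC, by 0.38 in TC71 and by 0.44 in RDES and stood at -0.30 in TC32. The differences of these genes were 1.60 for APOE, 1.42 for LTB4R, 1.37 for P2RY11 and 1.42 for RAX2. Without background correction they were 0.98 for APOE, 0.78 for LTB4R and 0.80 for RAX2, and they remained called.

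**Figure D3:**
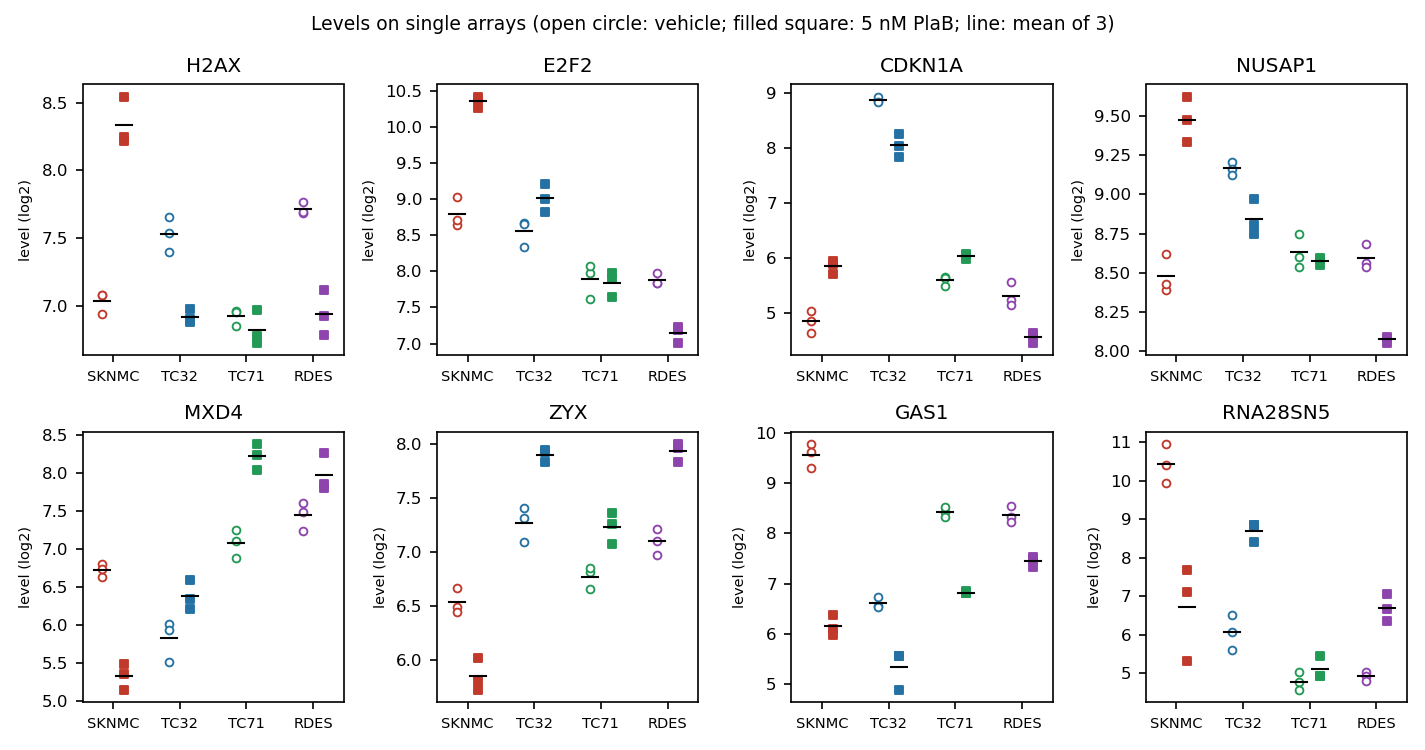
Normalized log2 level (y axis) of 8 genes on each of the 24 arrays, by line (x axis), with open circles for vehicle, filled squares for 5 nM PlaB and a bar at the mean of 3 arrays. H2AX, E2F2, CDKN1A and NUSAP1 were higher with PlaB in SKNMC, while MXD4, ZYX, GAS1 and RNA28SN5 were lower there, and MXD4 and ZYX were higher with PlaB in each of the other lines.

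Small non-coding RNAs made up a further part of the higher differences. These molecules are cut from longer transcripts or made by RNA polymerase III, and whether a probe reads the mature RNA or a longer precursor was not tested. RPPH1, the RNA subunit of ribonuclease P, gave 6.2, 6.14 and 6.30 with vehicle and 8.47, 8.75 and 8.56 with PlaB in SKNMC. It rose there by 2.38, in TC32 by 0.97 and in TC71 by 0.92, and stood at -0.08 in RDES, which gave a difference of 1.77 ± 0.16 (adjusted p = 1.83e-09). SNORD56, a guide for methylation of ribosomal RNA, gave 6.25, 6.08 and 6.62 with vehicle and 8.10, 8.11 and 8.08 with PlaB in SKNMC. SNORD56 rose by 1.78 in SKNMC and 0.61 in TC71, and its values of -0.08 in TC32 and -0.18 in RDES did not pass. The difference for SNORD56 was 1.66 ± 0.13.

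Of 301 small nucleolar and Cajal body RNA symbols on the chip, 116 were measured by a tested probe. Of these, 40 were higher in the difference (34.5%, against 14% of all tested genes) and 8 lower (6.9%, against 17.9%), with 13 particular and higher and 1 particular and lower. Their median response was 0.79 in SKNMC, 0.58 in TC32, 0.61 in TC71 and 0.28 in RDES. The median difference was 0.18, against -0.02 for all tested genes. With the other lines taken without RDES, 26 were higher, and under median centring also 26. SNORD57, which sits with SNORD56 in introns of the same host gene NOP56, was higher by 1.34 ± 0.15. SNORD99 rose in all 4 lines, by 2.77 in SKNMC and by 1.74, 1.41 and 1.19 in TC32, TC71 and RDES. SNORA68, a pseudouridylation guide, was higher by 1.32, and in TC71, where it was detected on no vehicle array and on all 3 PlaB arrays, it was at least 3.2-fold higher with PlaB (adjusted p = 9.78e-12).

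Of 15 measured host genes of these RNAs, 5 were higher and 2 lower. SNHG15 rose by 1.90 in SKNMC against 0.58, 0.97 and 0.86 in TC32, TC71 and RDES, and SNHG17 by 2.05 against 1.35, 0.95 and 1.11. SNHG1 was higher by 0.57, on a rise of 2.51 in SKNMC and of 1.85 to 2.06 elsewhere. SNHG4 went the other way, with a fall of 0.47 in SKNMC and rises of 1.28 in TC32 and 0.69 in RDES, a difference of -1.12 ± 0.12.

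Among 11 measured small nuclear RNA genes, the RNAs that with proteins build the spliceosome or regulate transcription, 8 were higher and 0 lower. Of all tested genes, 14% were higher and 17.9% lower. This group was taken by annotated gene type and was not one of the gene lists. The particular ones, named after their values were seen, were RNU4ATAC of the minor spliceosome (difference 0.93), the U1 gene RNU1-3 (0.99) and the U1 variants RNVU1-7 (1.04) and RNVU1-18 (0.79). U1 genes are near-identical copies, so their probes may read one another's transcripts, and the calls may not be separate observations. RNY1, a Y RNA, was particular and higher at 1.14, with a rise of 0.92 in SKNMC.

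Of 3 measured ribosomal RNA genes, 0 were higher and 2 lower, where 14% of all tested genes were higher and 17.9% lower. This small group was also taken by annotated gene type. RNA28SN5, for 28S ribosomal RNA, gave 10.95, 10.41 and 9.95 with vehicle and 7.69, 5.33 and 7.11 with PlaB in SKNMC. It gave 6.07, 5.60 and 6.51 against 8.40, 8.85 and 8.85 in TC32. It gave 4.77, 4.56 and 5.02 against 5.45, 4.94 and 4.93 in TC71, and 5.04, 4.93 and 4.80 against 7.06, 6.37 and 6.68 in RDES. SKNMC vehicle arrays thus lay 5.18 above the mean of the other vehicle groups, and PlaB arrays lay far below them, while TC32 and RDES moved upward. The difference was -5.30 ± 0.39 (adjusted p = 4.34e-11), the largest of any named gene. A second RNA28SN5 probe gave -1.23, and RNA18SN5, for 18S ribosomal RNA and named after its values were seen, gave -1.17. Across the alternatives and with single arrays left out, the difference of the brighter RNA28SN5 probe ran from -5.93 to -4.06.

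Among brightest probes detected on all 24 arrays, GAS1 and MXD4 had the largest lower differences that were particular to SKNMC outside ribosomal RNA. GAS1, a membrane co-receptor of hedgehog signalling first described in growth-arrested cells, gave 9.77, 9.61 and 9.30 with vehicle and 5.99, 6.38 and 6.11 with PlaB in SKNMC. In SKNMC it fell by 3.40, in TC32 it fell by 1.27, in TC71 it fell by 1.59 and in RDES it fell by 0.91. The difference was -2.15 ± 0.17 (adjusted p = 1.58e-10), and a second, dimmer probe of GAS1 was not called at -0.15.

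MXD4 encodes a partner of MAX that represses genes which MYC activates. SKNMC gave 6.64, 6.80 and 6.74 with vehicle and 5.49, 5.35 and 5.14 with PlaB. TC32 gave 6.01, 5.52 and 5.93 against 6.34, 6.22 and 6.59. TC71 gave 7.25, 6.88 and 7.11 against 8.38, 8.05 and 8.24, and RDES gave 7.61, 7.24 and 7.48 against 7.85, 7.80 and 8.26. PlaB arrays lay below all vehicle arrays in SKNMC and above all of them in TC32, TC71 and RDES. The difference was -2.14 ± 0.17 (adjusted p = 1.48e-10), and -1.28 without background correction. Of the other members of the MYC network, which went either way, MXD1 and MXD3 were higher in the difference. MXD1 was higher by 0.76, from detection on no vehicle array and all 3 PlaB arrays in SKNMC (at least 2.45-fold). MXD3 was detected on no PlaB array of the other lines and was at least 2.5-fold, 1.20-fold and 1.55-fold higher with vehicle in TC32, TC71 and RDES. In SKNMC its response of -0.20 did not pass.

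SAMD11 gave 8.25, 8.27 and 8.36 with vehicle and 5.74, 5.84 and 5.79 with PlaB in SKNMC, a fall of 2.51. It fell by 0.45 in TC71 and 0.84 in RDES, and its response of -0.11 in TC32 did not pass. The difference was -2.04 ± 0.13, with a second probe at -0.36 and not called. FRMD6, a FERM-domain protein of the Hippo pathway, fell by 1.5 in SKNMC and rose by 0.38 in TC71. SOX18, a transcription factor of vessel development, fell by 2.04 in SKNMC, 0.97 in TC71 and 0.73 in RDES and rose by 0.38 in TC32. CXXC5, a CpG-binding zinc finger protein, fell by 1.63 in SKNMC and 0.42 in TC71 and stood at 0.29 in RDES.

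FAM181B (-1.65), RPAIN, which imports replication protein A into the nucleus (-1.60), the pseudogene ZNF252P (-1.58) and FAHD1, a mitochondrial oxaloacetate decarboxylase (-1.57), were also among the 12 lowest particular differences of genes detected on all 24 arrays. RPAIN and FAHD1 fell in all 4 lines. The other FAHD1 probe was not called at -0.22. PVT1, a long non-coding RNA whose gene neighbours MYC, differed in kind. It gave 7.66, 7.64 and 7.25 with vehicle and 7.51, 7.70 and 7.38 with PlaB in SKNMC, and rose by 1.93 in TC32, 1.38 in TC71 and 1.53 in RDES. Of the 4 lines, arrays of the treatments overlapped in SKNMC only, and PlaB arrays of the other lines lay between 6.54 and 8.25.

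Genes that were particular and lower often had a high vehicle level in SKNMC. The SKNMC vehicle mean was the highest of the 4 lines for 294 of the 689 genes (42.7%), for 153 of the 482 particular and higher genes (31.7%) and for 3189 of all 10882 tested genes (29.3%). The vehicle arrays enter both the level and the response, so these shares are not independent of the choice of genes. TWIST1, a mesenchymal transcription factor, is an example. It gave 10.26, 10.52 and 10.16 with vehicle and 8.21, 7.85 and 7.97 with PlaB in SKNMC, and its vehicle levels elsewhere ran from 6.69 in TC32 to 9.01 in RDES.

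Opposite responses were found for 23 genes, MXD4 among them, and those described next were detected on every array. ZYX, the focal adhesion protein zyxin, gave 6.49, 6.66 and 6.44 with vehicle and 6.01, 5.72 and 5.80 with PlaB in SKNMC. It gave 7.32, 7.09 and 7.41 against 7.83, 7.93 and 7.95 in TC32, 6.81, 6.65 and 6.85 against 7.36, 7.26 and 7.07 in TC71, and 7.21, 7.10 and 6.97 against 7.83, 7.96 and 8.0 in RDES. No pair of treatments overlapped, and the difference was -1.33 ± 0.13 (adjusted p = 8.89e-09). A second ZYX probe, with -0.01 in SKNMC and rises in the other lines, gave -0.72.

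COA5 and NDUFAF1, assembly factors of cytochrome c oxidase and of respiratory complex I, fell in SKNMC by 0.55 and 0.38 and rose in the other lines by 0.38 to 0.79. UNC50, a Golgi membrane protein, fell by 0.63 in SKNMC and rose by 0.35 to 0.44 elsewhere. COMMD5 fell by 0.71 in SKNMC and rose by 0.36 to 0.45 elsewhere on its brightest probe. Its other probes did not go together: one was called at -0.79 and another the other way, at 0.75, so the direction of COMMD5 depends on the probe.

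In the reverse direction, LYRM1 gave 6.31, 6.29 and 6.03 with vehicle and 6.74, 6.83 and 6.84 with PlaB in SKNMC, a rise of 0.59, and fell by 1.16 in TC32, 0.37 in TC71 and 0.56 in RDES. CSTF2, a subunit of the cleavage stimulation factor that acts in mRNA 3′ end formation, rose by 0.34 in SKNMC and fell by 0.74, 0.34 and 0.40 in TC32, TC71 and RDES. ZSWIM7, a factor of recombination repair, was higher by 1.09, SAC3D1 by 1.15, NRGN, the calmodulin-binding protein neurogranin, by 0.93 and KLHDC4 by 0.81. Each of the 4 rose in SKNMC by 0.35 to 0.47 and fell in the other lines by 0.38 to 0.89. Without background correction the difference was 0.41 for ZSWIM7, 0.40 for NRGN and 0.43 for KLHDC4, all still called.

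Detection limits what several differences can mean. Of the tested genes, 6227 were detected on all 24 arrays, and 324 of these were particular and higher and 482 particular and lower. Another 34 genes were detected on all arrays of a SKNMC group and on no array of the other lines, and 52 on no SKNMC array and on all arrays of a group in each other line. The direction of the difference in these sets is largely fixed by the choice, since the undetected lines cannot fall, so counts of calls in them are not read. The other 4569 genes were detected on a part of the arrays. A difference for a gene below background in the other lines is the SKNMC response alone, and says nothing of what a higher level there would have done.

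ATP2B3, a calcium pump of the plasma membrane, was detected on every SKNMC array, with 6.65, 6.50 and 6.45 for vehicle and 5.14, 4.85 and 5.43 for PlaB. In the other lines its values lay between 4.13 and 4.32, below detection. HS3ST2, a heparan sulfate sulfotransferase, gave 5.87, 5.80 and 5.67 with vehicle and 4.83, 4.26 and 4.28 with PlaB, and was detected on 1 of 3 PlaB arrays. UNC5A, a netrin receptor, was likewise detected on 1 of 3 PlaB arrays, KRT12, a corneal keratin, on 2 of 3, and ARPP21, a neuronal phosphoprotein, on all 3. MRGPRF, an orphan receptor, was detected on no SKNMC PlaB array and was at least 1.72-fold higher with vehicle. MRGPRF, HS3ST2, UNC5A and KRT12 were tested because the SKNMC vehicle group, and no other, detected them on all 3 arrays. Their falls with PlaB follow in part from that choice, so no p-value is read for them. The SKNMC falls of HS3ST2, UNC5A, ARPP21 and KRT12 were 1.32, 1.25, 1.17 and 0.97. With a background offset of 50 the difference of HS3ST2 was -0.68 and that of UNC5A -0.61. That of ATP2B3 was -0.88 and still called.

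In the reverse set, a higher difference stands for a fall in the other lines of a gene that SKNMC did not express above background. PCDH7, a protocadherin, gave 7.62, 7.60 and 7.78 with vehicle and 5.76, 5.23 and 5.98 with PlaB in TC32, and it fell by 0.92 in TC71 and 1.61 in RDES. Its SKNMC values of 4.16 to 4.31 were below detection with both treatments. SLC25A43, a mitochondrial carrier, fell by 1.16, 1.65 and 0.66 in TC32, TC71 and RDES, and ARPIN, an inhibitor of the Arp2/3 complex, by 1.04, 0.62 and 1.08. SEMA3A, an axon guidance ligand, fell by 1.45 in TC32 and 1.17 in TC71 and stood at -0.21 in RDES, so it was called in the difference but was not particular. SRPX fell by 0.73 to 0.77 and SYNDIG1 by 0.40 to 0.84 in the 3 lines. SYNDIG1 was detected on no PlaB array of TC32 or TC71, and there it was at least 1.09-fold and at least 1.38-fold higher with vehicle.

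The gene lists were described by counts beside those of all 10882 tested genes, of which 14% were higher and 17.9% lower. Genes of G2/M and mitosis stood farthest on the higher side. These genes build the spindle and drive the entry into and exit from mitosis. Of 57 measured, 38 were higher (66.7%) and 1 lower (1.75%), 21 were particular and higher, and the median difference was 0.53. In SKNMC 37 of them rose and 6 fell, where 26.3% of all tested genes rose and 31.3% fell, in TC32 23 rose and 10 fell, in TC71 23 rose and 11 fell, and in RDES 10 rose and 27 fell. Of all tested genes, 21.6% rose and 23.8% fell in TC32, 22.9% rose and 25.2% fell in TC71, and 21.4% rose and 22.5% fell in RDES. Their median response was 0.55 in SKNMC, 0.16 in TC32, 0.14 in TC71 and -0.22 in RDES. With TC32 and TC71 as the comparison and RDES left out, 28 were higher and the median was 0.40.

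NUSAP1, a microtubule-binding protein of the mitotic spindle, gave 8.62, 8.39 and 8.43 with vehicle and 9.33, 9.47 and 9.62 with PlaB in SKNMC. It gave 9.21, 9.16 and 9.12 against 8.75, 8.97 and 8.81 in TC32, 8.60, 8.54 and 8.75 against 8.55, 8.60 and 8.59 in TC71, and 8.56, 8.54 and 8.69 against 8.09, 8.05 and 8.08 in RDES. It rose in SKNMC, fell in TC32 and RDES, and overlapped between treatments in TC71. Its difference was 1.30 ± 0.12 (adjusted p = 2.07e-09), and 0.63 on a second probe. ASPM, a spindle pole protein, gave 6.97, 7.28 and 7.46 with vehicle and 8.52, 8.90 and 8.62 with PlaB in SKNMC and had a difference of 1.30 ± 0.19. It rose by 0.54 in TC71, and its responses of 0.00 in TC32 and -0.10 in RDES did not pass. FAM83D, which recruits a kinase to the spindle, was higher by 1.11, and TACC3, a spindle protein that stabilises microtubules, by 1.09. The kinase PLK1, the cyclin CCNB1 and the centromeric histone CENPA, named after their values were seen, were higher by 0.80, 0.85 and 0.95. The gene that was lower, CKS1B, a small subunit of cyclin-dependent kinases, fell by 1.34 in SKNMC and had a difference of -0.99.

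Many promoters of genes of this kind carry the cell cycle genes homology region (CHR) and CCAAT boxes, the first bound by DREAM and B-MYB complexes and the second by NF-Y. The promoters of ASPM, NUSAP1 and CENPA are shown because these genes had the largest differences among group members that hold a CHR in the stretch printed. They come from RefSeq (GRCh38.p14) and run from 250 bases before to 30 after the annotated start, written on the gene's own strand. Capitals mark the CHR, TTTGAA or its complement TTCAAA, and the CCAAT box, CCAAT or its complement ATTGG. ASPM lies on the minus strand at chr1:197146640-197146919, NUSAP1 on the plus strand at chr15:41332631-41332910 and CENPA on the plus strand at chr2:26785806-26786085.
ASPM: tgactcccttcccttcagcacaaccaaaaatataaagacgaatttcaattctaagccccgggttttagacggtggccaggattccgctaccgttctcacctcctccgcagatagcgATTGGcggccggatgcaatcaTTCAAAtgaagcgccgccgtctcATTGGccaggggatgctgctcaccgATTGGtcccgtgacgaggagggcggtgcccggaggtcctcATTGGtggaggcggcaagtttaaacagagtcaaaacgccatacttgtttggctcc
NUSAP1: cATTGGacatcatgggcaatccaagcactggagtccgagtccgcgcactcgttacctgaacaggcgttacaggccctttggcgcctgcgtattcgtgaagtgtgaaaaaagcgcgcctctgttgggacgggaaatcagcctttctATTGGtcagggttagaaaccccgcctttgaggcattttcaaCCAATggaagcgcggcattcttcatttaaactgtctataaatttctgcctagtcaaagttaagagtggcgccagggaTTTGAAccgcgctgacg
CENPA: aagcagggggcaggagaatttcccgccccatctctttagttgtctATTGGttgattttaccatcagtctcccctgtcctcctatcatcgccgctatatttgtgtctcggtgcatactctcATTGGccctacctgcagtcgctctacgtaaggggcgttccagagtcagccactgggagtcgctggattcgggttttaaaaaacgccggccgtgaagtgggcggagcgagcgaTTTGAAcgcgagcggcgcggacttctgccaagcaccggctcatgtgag

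The CHR begins at -113 in ASPM, at 13 in NUSAP1 and at -18 in CENPA, counted with the first transcribed base as 0. ASPM holds 4 CCAAT boxes, of which 1 lies upstream and 3 lie downstream of its CHR, while the 3 of NUSAP1 and the 2 of CENPA lie upstream. Promoter windows of 250 bases before to 50 after the start were matched for 47 of the 57 measured G2/M genes. A CHR on either strand was in 32 of the 47 (68.1%), against 862 of 8736 promoters of tested genes (9.87%) and 15.4% of all 27305 promoters. A CCAAT box was in 37 (78.7%), against 37.2% of tested genes and 35.7% of all promoters. Both were in 28 (59.6%), against 4.3% of tested genes. The variant TTTAAA was in 15 (31.9%), against 7.61% of tested genes. A CCAAT box can share its end base with a CHR or with the variant, and each is then counted. Of the 31 matched genes that were higher in the difference, 22 held a CHR (71.0%). These are matches of letters in a window and do not show that a factor was bound.

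Genes of DNA replication went the same way in the difference, with less uniformity. Of 48 measured, 21 were higher (43.8%) and 7 lower (14.6%), with a median difference of 0.33. Their median response was below 0 in each line, -0.16 in SKNMC, -0.25 in TC32, -0.61 in TC71 and -0.78 in RDES. In SKNMC 10 of them rose and 22 fell, in TC32 6 and 23, in TC71 2 and 35 and in RDES 2 and 32. The shares of all tested genes are given above with the G2/M genes. ORC1, the largest subunit of the origin recognition complex, gave 5.68, 5.83 and 5.76 with vehicle and 7.85, 7.5 and 7.96 with PlaB in SKNMC. ORC1 rose by 2.01 there, 1.11 in TC32 and 0.97 in TC71, and stood at 0.33 in RDES without passing. CDT1, which loads the replicative helicase, rose by 1.73 in SKNMC and by 1.43 in TC32, and was not particular. GINS3, a subunit of that helicase, rose by 0.94 in SKNMC and 0.48 in TC32 and fell by 0.40 in RDES. CHAF1B, a histone chaperone of replicating chromatin, fell by 0.67, 1.42 and 1.18 in TC32, TC71 and RDES and stood at -0.12 in SKNMC.

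**Figure D4:**
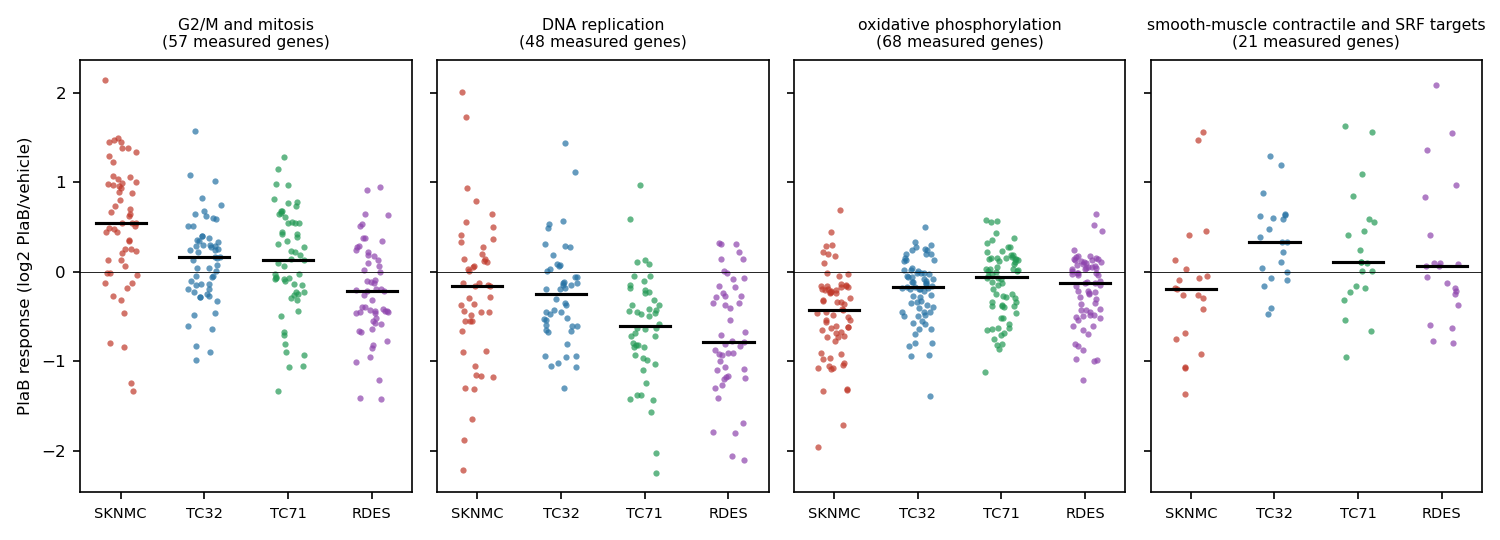
PlaB response (y axis, log2 PlaB over vehicle) of every measured gene of 4 lists in each line (x axis), with 1 point per gene, spread sideways at random, and a bar at the median. The G2/M median is 0.55 in SKNMC and -0.22 in RDES, and the medians of oxidative phosphorylation and of contractile genes are lowest in SKNMC.

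Genes of oxidative phosphorylation, the respiratory chain and ATP synthase of mitochondria, stood on the lower side. Of 68 measured, 0 were higher and 31 lower (45.6%), 13 of them particular, with a median difference of -0.32. The count was 23 to 33 when single arrays were left out, 17 under median centring, 21 under cyclic loess, and 11 lower and 4 higher after centring on probes detected on all arrays. In SKNMC 39 fell and 3 rose, and in each other line 22 fell, where the share of all tested genes that fell was 31.3% in SKNMC, 23.8% in TC32, 25.2% in TC71 and 22.5% in RDES. The median response was -0.42 in SKNMC, -0.17 in TC32, -0.06 in TC71 and -0.12 in RDES.

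SDHC, a membrane subunit of succinate dehydrogenase, gave 7.73, 7.88 and 7.47 with vehicle and 6.48, 6.14 and 6.47 with PlaB in SKNMC. It fell there by 1.33, in TC32 by 0.55 and in RDES by 0.48, which gave -0.95 ± 0.13, while a second probe gave 0.32 and was not called. ATP5PO, a stalk subunit of ATP synthase, gave 10.22, 10.50 and 10.16 against 8.51, 8.45 and 8.05 in SKNMC and fell by 1.96 there and by 0.94 to 1.12 in the other lines. The complex I subunit NDUFA7 fell by 1.72 in SKNMC and by 0.83 to 0.93 elsewhere. NDUFA8, of the same complex, fell by 0.73 in SKNMC and stood at -0.05, 0.18 and 0.06 in TC32, TC71 and RDES.

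Contractile and adhesion genes that serum response factor controls were lower as well. Of 21 measured, 0 were higher and 11 lower (52.4%), 8 of them particular, and the median difference was -0.43. Their median response was -0.20 in SKNMC and 0.34, 0.10 and 0.06 in TC32, TC71 and RDES. ACTG2, a smooth-muscle actin, gave 8.64, 8.72 and 8.85 with vehicle and 8.65, 8.77 and 8.59 with PlaB in SKNMC. It rose by 1.57 in TC71 and 2.08 in RDES. In TC32 it was detected on no vehicle array and on 2 of 3 PlaB arrays, at least 1.32-fold higher with PlaB (adjusted p = 0.00775). TPM1, a tropomyosin, fell by 0.92 in SKNMC and rose by 0.65 in TC32. Another TPM1 probe was called at -1.17, and 2 more, at -0.14 and -0.20, were not. Those 2 had responses of 0.48 and 0.27 in SKNMC, so the direction of the TPM1 response there depends on the probe. ACTN1, the actin cross-linker alpha-actinin, fell by 1.36 in SKNMC and 0.66 in TC71, and CNN2, a calponin named after its values were seen, fell by 1.06 in SKNMC.

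Extracellular matrix and mesenchymal genes counted 1 higher (2.33%) and 17 lower (39.5%) of 43 measured, with a median of -0.18. Only 13 of the 43 were detected on all 24 arrays, and 5 of those were lower. COL1A2, a chain of type I collagen, gave 8.48, 8.35 and 8.70 with vehicle and 6.93, 7.04 and 7.01 with PlaB in SKNMC, and was detected on 0 or 1 of 3 arrays in every group of the other lines. In SKNMC it fell by 1.51 on that probe and the response of a second probe was -2.94. CD248, a glycoprotein of stromal cells, had responses of -3.15 in SKNMC and of -1.19, -1.10 and -1.84 in TC32, TC71 and RDES. TWIST1 fell by 2.30 in SKNMC and by 0.65 to 0.95 in the other lines, a difference of -1.51 ± 0.15 (adjusted p = 1.59e-08). IGFBP5, a binding protein for insulin-like growth factors, fell by 1.87 against 0.32 to 0.85.

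Neural genes were 0 higher and 8 lower of 26 measured, with 2 and 5 under cyclic loess and 3 and 5 after centring on probes that all arrays detected. BHLHE22, a neural helix-loop-helix factor, fell by 2.37 in SKNMC, 0.39 in TC32 and 0.76 in TC71. UCHL1, a neuronal deubiquitinase, gave 10.62, 10.10 and 10.23 with vehicle and 9.09, 9.06 and 8.96 with PlaB in SKNMC, a fall of 1.28, and stood between -0.16 and -0.02 in the other lines. POU3F2, a POU-domain factor of neurons, fell by 2.20 in SKNMC and by 1.63, 1.25 and 0.50 elsewhere.

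Targets of the fusion protein leaned to the lower side, the activated and the repressed alike. Of 34 measured genes that EWS-FLI1 activates, 5 were higher (14.7%) and 11 lower (32.4%). Of 25 that it represses, 4 were higher (16%) and 10 lower (40%). The shares of all tested genes were 14% and 17.9%. The median of the activated genes was -0.16, and 0.0075 after centring on probes detected on all arrays. That of the repressed genes was -0.22, and -0.077 after the same centring. Only 7 of the 25 repressed genes were detected on all 24 arrays. STEAP1, a metalloreductase and marker of this tumour, gave 9.27, 9.39 and 8.97 with vehicle and 7.63, 8.26 and 7.46 with PlaB in SKNMC. It fell there by 1.43, and its responses of -0.18, -0.33 and 0.26 elsewhere did not pass. Both other STEAP1 probes were also called lower, at -0.76 and -0.78. PTPN13, a phosphatase, fell in all 4 lines, by 2.07 in SKNMC, with a second probe at -0.28 and not called. FOXM1 and AURKA, a transcription factor and a kinase of mitosis that are also on the G2/M list, were higher by 0.93 and 0.86. Among the repressed genes the named ones were COL1A2, TWIST1, CDKN1A and CDKN1C, described above.

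**Figure D5:**
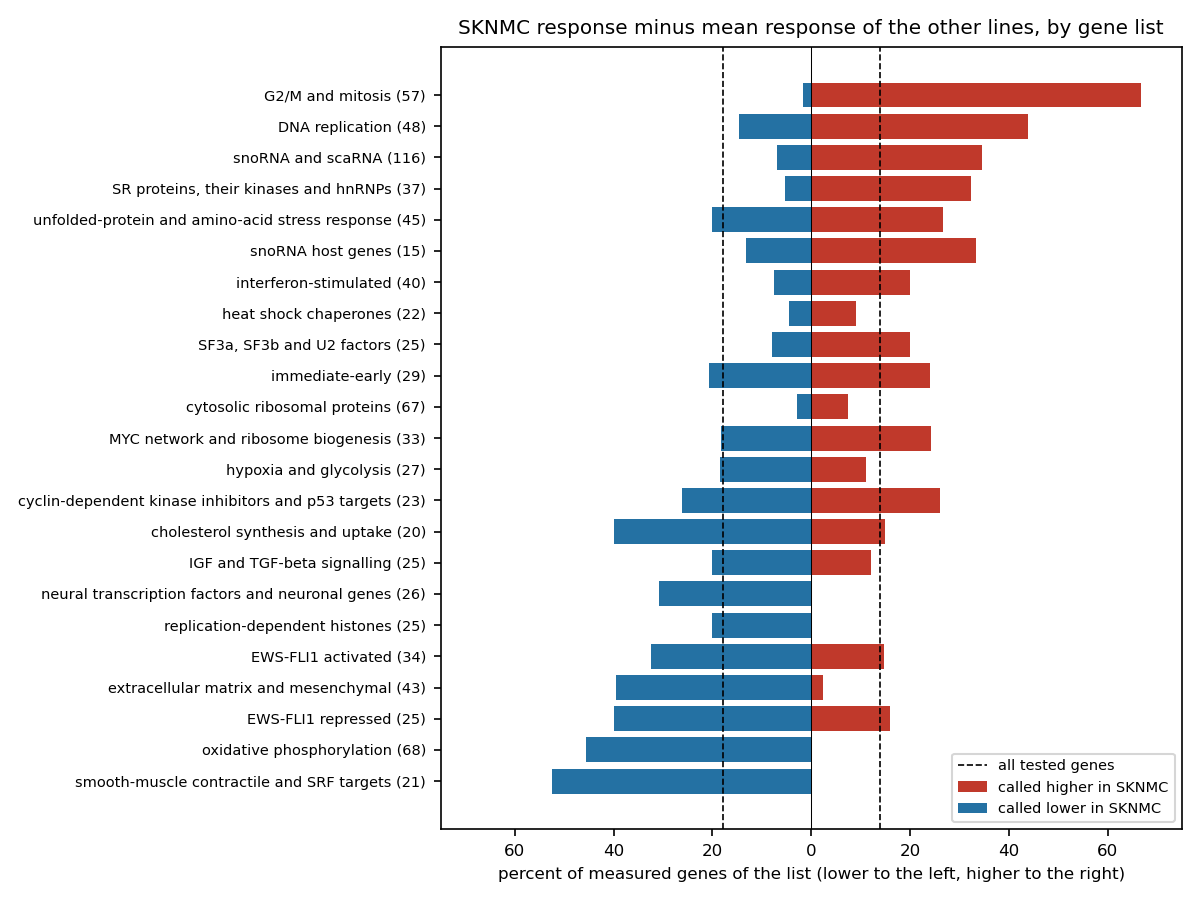
Percent of the measured genes of each list (number in brackets, lists with at least 10) that were called lower (blue, to the left) or higher (red, to the right) in SKNMC relative to the mean of the other lines, ordered by the median difference. Dashed lines mark the 17.9% and 14% of all tested genes, and G2/M genes reach 66.7% higher.

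Splicing factors were measured as the group closest to the drug's target. SF3B1, the SF3b subunit that holds the drug, rose in all 4 lines, by 0.63, 0.56, 0.88 and 0.66 in SKNMC, TC32, TC71 and RDES. Its difference of -0.07 ± 0.13 was not called (adjusted p = 0.753), and turned to 0.0046 under cyclic loess and 0.078 after centring on the probes that all arrays detected. A second SF3B1 probe gave -0.25 and was not called. Of 25 measured SF3a, SF3b and U2 factors, 5 were higher and 2 lower, with 3 and 1 under median centring, 10 and 2 under cyclic loess and 11 and 1 after centring on probes that all arrays detected. SF1, the branch point binding protein, rose by 0.53 in SKNMC and fell by 0.38 in TC32, with another probe at -0.02 and not called. DDX46, an RNA helicase, fell in every line, by 0.40 in SKNMC against 0.81 to 1.43, and its difference from TC32 did not pass. Of 37 SR proteins, their kinases and hnRNPs, 12 were higher (32.4%) and 2 lower (5.41%), with 18 and 0 under the same centring. CLK1, a kinase of SR proteins, rose by 1.37 in SKNMC against 0.50 in TC71 and 0.70 in RDES. HNRNPL and TRA2B, splicing regulators, rose in SKNMC by 0.71 and 0.91, and HNRNPDL rose in all 4 lines, by 1.64 in SKNMC.

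The stress and signalling lists held members on either side. Of 45 genes of the unfolded-protein and amino-acid stress response, 12 were higher and 9 lower. MTHFD2, an enzyme of mitochondrial folate metabolism, rose by 1.41 in SKNMC and 0.74 in TC71. ATF3, a stress-induced transcription factor that is also an immediate-early gene, rose in all 4 lines, by 2.39 in SKNMC and 0.59 in RDES, and was not particular. MANF, a secreted factor of the endoplasmic reticulum, fell by 1.97 in SKNMC against 0.94 to 1.16. DDIT4, an inhibitor of mTORC1, went the opposite way to the other lines: it gave 6.94, 6.88 and 7.14 with vehicle and 6.69, 6.62 and 6.67 with PlaB in SKNMC, a fall of 0.33, and rose by 1.10, 0.48 and 0.34 in TC32, TC71 and RDES.

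Of 29 immediate-early genes, 7 were higher and 6 lower. ID3, an inhibitor of helix-loop-helix factors, gave 9.13, 8.95 and 8.72 with vehicle and 7.54, 7.48 and 7.44 with PlaB in SKNMC, a fall of 1.45, and passed in no other line. FOS, a subunit of AP-1, rose by 1.11 in SKNMC and fell by 1.00 in TC32, and was at least 1.66-fold higher with PlaB in TC71. Its difference of 1.04 was 0.51, still called, with TC32 left out. DUSP1, a phosphatase of MAP kinases, fell by 0.45 in SKNMC and rose by 0.67 in TC32 and 0.60 in TC71. Cholesterol genes counted 3 higher and 8 lower of 20, with a fall in all 4 lines for SQLE, HMGCS1 and LSS, by 1.54, 1.77 and 1.95 in SKNMC. INSIG1, which retains the sterol sensor in the endoplasmic reticulum, fell in the 3 other lines and stood at -0.29 in SKNMC.

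Among 27 hypoxia and glycolysis genes, 3 were higher and 5 lower. The glycolytic enzymes TPI1 and ALDOA were lower at -1.09 and -0.86, each with a second probe not called at -0.22 and -0.31, and ALDOC was higher at 0.95. LOX, a collagen cross-linking enzyme, fell by 0.71 in SKNMC and was detected on 0 to 3 of 3 arrays in the groups of the other lines. Of 33 genes of the MYC network and ribosome biogenesis, 8 were higher and 6 lower, and CAD, the enzyme that starts pyrimidine synthesis, fell by 1.17 in SKNMC against 0.34 to 0.65. Of 25 genes of IGF and TGF-beta signalling, 3 were higher and 5 lower, with SMAD6 at -0.63 and IRS2 at -0.49. IRS2 ran from -0.67 to -0.18 over the alternatives and lost its call under 3 of them, each a change of scaling.

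Of 25 replication-dependent histone genes, 0 were higher and 5 lower, with 8 lower under median centring and also without RDES. H2AC6 fell in SKNMC from detection on all 3 vehicle arrays to detection on no PlaB array, at least 1.83-fold, and rose by 0.58 in TC71. H4C8 likewise fell by 0.59 in SKNMC and rose by 0.62 in TC71. H2AC25 rose in the 3 other lines and stood at -0.03 in SKNMC, and H2AC19 had a difference of -0.80 that was -0.18 and not called with TC71 left out. Histone genes are near-identical, so single members are uncertain.

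Ribosomal protein genes counted 5 higher and 2 lower of 67 measured, among them RPS3A at 0.68, RPL37 at 0.56, RPS2 at -0.47 and RPS21 at -0.44. Both other RPS3A probes, at 0.31 and 0.18, and the other RPL37 probe, at -0.22, were not called. With centring on the probes that all arrays detected, the ribosomal counts were 11 higher and 0 lower. The calls of RPL37, RPS2 and RPS21 were lost under 3, 5 and 8 of 39 alternatives. Without SKNMC vehicle replicate 1, SKNMC vehicle replicate 2 or SKNMC PlaB replicate 3, RPS2 stood at -0.42, -0.41 and -0.33 and RPS21 at -0.30, -0.44 and -0.35, none of them called. Heat shock chaperones counted 2 higher (HSPH1 at 0.63 and HSP90AA1 at 0.58) and 1 lower (HSPE1 at -0.53) of 22, and another HSP90AA1 probe was called the other way, at -0.44. HSPE1 lost its call under 6 of 39 alternatives, including without SKNMC vehicle replicate 1 (-0.46) and without SKNMC PlaB replicate 1 (-0.39), and HSPH1 lost its call under 1. The chaperone counts were 2 higher and 0 lower under median centring and 5 and 0 after centring on probes that all arrays detected. Interferon-stimulated genes counted 8 higher and 3 lower of 40, with 4 and 3 under median centring or without TC32, and 13 and 1 after centring on probes that all arrays detected. IFI6 fell in the 3 other lines and stood at 0.23 in SKNMC, and its second probe, at 0.20, was not called. TAP2, HLA-E and HLA-C had differences of 0.52, -0.57 and 0.46 that were each lost under at least 1 alternative. Only the SKNMC PlaB group detected HLA-C on all 3 arrays, so its higher difference follows in part from the detection filter. In SKNMC, TAP2 was detected on 0 of 3 vehicle and 1 of 3 PlaB arrays. Its difference thus stands largely for lower levels with PlaB in the other lines. A second TAP2 probe, at -0.22, was not called.

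Few marker genes of non-tumour cells reached detection. Of 5 measured blood-cell markers, CD14, CD68 and CD79A were higher, at 0.87, 0.76 and 0.63, and CORO1A was lower, at -0.78, where it was at least 1.65-fold higher with vehicle in SKNMC. Only the SKNMC vehicle group detected CORO1A on all 3 arrays, so its fall follows in part from the detection filter. A second CD79A probe was not called at -0.01. PTPRC, the pan-leukocyte surface marker, was detected on at most 1 of 3 arrays in any group and TYROBP on none. KRT18, a simple-epithelial keratin, was lower at -0.80 but was not particular, with a difference from TC71 of -0.11. Its mean rose with PlaB from 5.773 to 6.568 in TC32 and from 4.995 to 5.812 in RDES, while SKNMC arrays of the treatments overlapped. In SKNMC and in TC71 it was detected on 3 of 3 vehicle arrays and 1 of 3 PlaB arrays. Of 3 measured endothelial and 4 measured skeletal-muscle markers, 0 were called in limma. A part of these markers in the other results was not tested.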

How the data were processed

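The authors deposited a non-normalized intensity for each of 47323 probes on each of 24 arrays, with a detection p-value for each that was deposited beside it, per the file headers. GenomeStudio, R 3.0.2 and lumi are named in the submitters' processing notes without a role. A table of processed log2 values that was also deposited was not used, since its entries for 3 lines did not match the probes they name.

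From the intensities, neqc of limma 3.58.1 in R 4.3.3 removed background, estimated through the detection p-values, with an offset of 16, followed by quantile normalization over all arrays and log2. Testing was limited to the 17557 probes for which some group of the 8 had each of its 3 arrays at a detection p below 0.05. One model of 8 group means was fitted with lmFit and eBayes, and p-values were adjusted by Benjamini-Hochberg over all tested probes. Genes were read from their brightest tested probe, named through the platform annotation: of the tested probes 13978 carried a single symbol, 3578 carried none and 1 carried several. The number of arrays limits the precision.

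A fold written as "at least" compares the mean of the detected group with, on each array of the undetected group, the higher of the lowest detected signal and the probe's own, and the adjusted p beside it is that of the fit. The steps were tested on simulated data. Genes named were the 12 highest and 12 lowest particular differences detected on all 24 arrays, up to 6 per direction with opposite responses, up to 6 detected in SKNMC only and up to 6 in the other lines only, up to 4 called members of each list, SF3B1 and CDKN1A. Exceptions are said to be named after their values were seen. The members and lists were chosen with earlier results of these data known. Alternatives covered background, scaling, detection filter, array weights, variance prior, replicate block, the other lines taken 2 at a time, and single arrays left out.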

Additional observations from a re-analysis of the deposited data

Results flagged for a closer look

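Each result here differed between SKNMC and the other lines by a limma test of the difference itself, with an adjusted p under 0.05, and for 5043 probes this test was passed. For genes particular to SKNMC, the value given is the difference in log2 response from the other line nearest to SKNMC. Every other line lay at least as far away. ATP2B3, HS3ST2, UNC5A, ARPP21, MRGPRF and KRT12 were detected on no array of the other lines, and COL1A2 on 0 or 1 of 3 in each group. Their values are the SKNMC response set against background. HS3ST2, UNC5A, MRGPRF, KRT12, CDKN1C and CORO1A were tested because only the SKNMC vehicle group detected them on all 3 arrays. HLA-C was tested because only the SKNMC PlaB group detected it on all 3. The values of these genes follow in part from that choice, so their passing of the test is not read. PCDH7, SLC25A43, ARPIN, SRPX, SEMA3A and SYNDIG1 were detected on no SKNMC array, so a higher value stands for a fall in the other lines.

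With TC32 nearest, the SKNMC response was higher for RPPH1 (1.41), E2F2 (1.11), EXO1 (1.10), P2RY11 (1.04), LTB4R (1.03), SNORD99 (1.02), FAM83D (1.00), ORC1 (0.90) and NRGN (0.84). Smaller positive differences from TC32 were those of KLHDC4 (0.73), SNHG17 (0.70), HNRNPDL (0.68), HNRNPL (0.61), SRPX (0.59), AURKA (0.55), CHAF1B (0.55), GINS3 (0.45) and SNHG1 (0.45). With TC71 nearest, the SKNMC response was higher for H2AX (1.41), POLQ (1.28), ATAD2 (1.19), SNORD56 (1.17), SNORA68 (1.16), NUSAP1 (1.05), SAC3D1 (1.04), SNORD57 (1.04) and LYRM1 (0.96). Smaller positive differences from TC71 were those of SNHG15 (0.94), ASPM (0.91), PCDH7 (0.84), TRA2B (0.78), TACC3 (0.72), CSTF2 (0.68), MTHFD2 (0.66), FOXM1 (0.65) and ARPIN (0.62). Smaller positive differences from TC71 were those of CDKN1A (0.56) and IFI6 (0.55). With RDES nearest, the SKNMC response was higher for APOE (1.33), RAX2 (1.15), ZSWIM7 (1.02), SLC25A43 (0.69), CLK1 (0.66), SF1 (0.61) and MXD1 (0.55).

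With TC32 nearest, the SKNMC response was lower for ATP2B3 (-1.43), IGFBP5 (-1.02), KRT12 (-0.89), TIGAR (-0.82), NDUFA7 (-0.79), SDHC (-0.78), NDUFAF1 (-0.76), PTPN13 (-0.75) and NDUFA8 (-0.68). Smaller negative differences from TC32 were those of POU3F2 (-0.57) and ACTG2 (-0.54). With TC71 nearest, the SKNMC response was lower for RNA28SN5 (-4.05), GAS1 (-1.81), BHLHE22 (-1.61), FAM181B (-1.57), FAHD1 (-1.37), PVT1 (-1.37), CXXC5 (-1.21), ZNF252P (-1.20) and ZYX (-1.15). Smaller negative differences from TC71 were those of UCHL1 (-1.12), STEAP1 (-1.10), RPAIN (-1.07), SOX18 (-1.06), TPI1 (-0.99), MRGPRF (-0.95), ATP5PO (-0.83), MANF (-0.81) and ALDOA (-0.72). Smaller negative differences from TC71 were those of ACTN1 (-0.70), TPM1 (-0.70), LOX (-0.60), SQLE (-0.55), CAD (-0.52) and SNHG4 (-0.43). With RDES nearest, the SKNMC response was lower for MXD4 (-1.93), SAMD11 (-1.67), COL1A2 (-1.54), TWIST1 (-1.35), FRMD6 (-1.34), CD248 (-1.31), HS3ST2 (-1.30), ID3 (-1.18) and UNC5A (-1.14). Smaller negative differences from RDES were those of ARPP21 (-1.09), COMMD5 (-1.07), UNC50 (-0.98), COA5 (-0.94), H2AC6 (-0.87), CDKN1C (-0.86), LSS (-0.69), CORO1A (-0.67) and DDIT4 (-0.67). Smaller negative differences from RDES were those of H2AC25 (-0.62), DUSP1 (-0.58) and H4C8 (-0.50).

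For genes called against the mean of the other lines but not against each of them, the value is the difference from that mean. It was above 0 for CDT1 (1.05), FOS (1.04), SEMA3A (0.97), ATF3 (0.96), ALDOC (0.95), CD14 (0.87), INSIG1 (0.87), CD68 (0.76), RPS3A (0.68) and DDX46 (0.67). Nearer to 0 were MXD3 (0.66), RBM17 (0.65), HSPH1 (0.63), CD79A (0.63), SYNDIG1 (0.58), HSP90AA1 (0.58), CHERP (0.57), RPL37 (0.56), TAP2 (0.52) and HLA-C (0.46). It was below 0 for HMGCS1 (-0.85), XPC (-0.82), H2AC19 (-0.80), KRT18 (-0.80), SMAD6 (-0.63), HLA-E (-0.57), HSPE1 (-0.53), TUBB3 (-0.52), IRS2 (-0.49) and RPS2 (-0.47). Nearer to 0 were RPS21 (-0.44). No gap test for a single array within a group was run, since it needs at least 4 arrays. SKNMC PlaB replicate 2 had the lowest array weight, 0.59.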

How the results depend on the processing

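The alternatives comprised 15 settings that kept all arrays and 24 that left out a single array. The 2330 probes called higher became 1366 under median centring and 1538 with only probes detected on all 24 arrays. The 720 particular and higher probes became 301 under median centring and 1083 with TC71 left out of the other lines, and the 1171 particular genes became 284 where at least a 2-fold difference was also asked. Of the particular probes 43.7% were higher, against 23.7% under median centring, 54% under cyclic loess and 53.9% after centring on probes detected on all arrays. Leaving out single arrays gave 1913 to 2350 probes higher, 2257 to 2751 lower and 4170 to 5093 in all, and particular probes of 576 to 708 higher, 752 to 911 lower and 1328 to 1613 in all, each lowest without SKNMC vehicle replicate 1. With a replicate block within each line, 2255 probes were higher and 2664 lower, and with a block across all lines 2328 and 2715. After the mean of each group was removed, same-numbered vehicle and PlaB arrays of a line had correlations of -0.041 to 0.0535. Arrays of different number had -0.0501 to 0.0433, so the numbers were not taken to pair samples. The uncalled difference of SF3B1 turned to 0.0046 under cyclic loess, 0.078 after centring on probes detected on all arrays, 0.024 without TC71 among the other lines and ran from -0.17 without SKNMC vehicle replicate 3 to 0.019 without SKNMC vehicle replicate 1. Of values for named genes, 28 lost their call under settings that kept all arrays and 9 with single arrays left out, while 1933 and 3182 kept direction and side of the threshold. The size of 67 of 132 called differences moved by over 1.5 times without background correction and of 41 with an offset of 50. The cause was not tested. The planned use of the deposited log2 table was not run: in SKNMC, TC71 and RDES only 36.4%, 75.2% and 36.4% of its values lay within 0.03 of those expected for the probe named.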
